A study of Mus musculus with 8 samples.

Results

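The astrocyte genes are 31 genes that mark astrocytes or carry out their main tasks in brain tissue, from glutamate uptake and potassium buffering to lipid carriage and the reactive response. They were chosen by name for these roles, and all 31 were matched by Ensembl identifier among the 55890 genes of the count table. They were measured in the hypothalamus of female mice at 16 weeks of age, in 4 pools of POMC-C451Af/f mice and 4 pools of controls, each pool holding RNA of 2 animals. The POMC-C451Af/f mice carry a POMC-Cre transgene and a floxed allele of the estrogen receptor gene Esr1, so that the C451A mutation of the receptor is made in cells that express, or once expressed, Pomc. The mutation takes away signalling that starts from the receptor at the cell membrane. The sample labels call the controls wildtype, whereas the study's methods describe littermates with the floxed allele, and neither gives them Cre. In these pools an effect of the transgene itself therefore cannot be told apart from that of the mutation. In a separate experiment the study set mice with the transgene alone beside wildtype littermates. It reports no significant differences in body and tissue weights, sex steroids or body composition, measures other than hypothalamic RNA. Each library mixes RNA of 2 animals, so that the spread between pools need not be that between animals. The question here is whether RNA of these astrocyte genes differed between the genotypes in tissue of which Pomc neurons are a small part.

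Astrocytes clear glutamate from synapses and turn it into glutamine, take up potassium released by active neurons, move water and bicarbonate at their end-feet on blood vessels, and are joined by gap junctions. They supply neurons with lactate and with cholesterol on lipoproteins, and in the hypothalamus they surround the neurons that regulate feeding and reproduction. On injury or inflammation they raise intermediate filament, acute-phase and other genes, a state called reactive.

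The total estimated count was between 36095253 and 48942116 per pool. Levels are given as CPM, a gene's counts scaled by the normalized library size of the pool, and differences as log2 fold changes of POMC-C451Af/f over control pools with their standard error (SE). Esr1, the gene that carries the mutation, was at 12.3, 12.8, 11.6 and 16.0 CPM in control replicates 1 to 4. It was at 11.6, 12.2, 9.997 and 10.8 CPM in POMC-C451Af/f replicates 1 to 4. Every pool expressed the gene, and a gene count does not tell the mutated from the intact transcript, so it carries no check of the genotype. The log2 fold change of Esr1 was -0.23 (SE 0.104), whereas the paper, by real-time PCR, reports total Esr1 RNA of the hypothalamus as unaffected. Pomc was at 98.9, 49.7, 50.5 and 50.8 CPM in the control pools and at 49.5, 50.2, 35.8 and 30.6 CPM in the POMC-C451Af/f pools, with control replicate 1 standing alone, and had a log2 fold change of -0.59 (SE 0.237). Both genes were lower at an unadjusted p under 0.05, and edgeR's adjusted p was 0.878 for each. Both values depended on which pools were in the fit. That of Esr1 was -0.13 without control replicate 4 and that of Pomc, a gene also expressed in the pituitary, was -0.28 without control replicate 1, the pool with the highest sum of pituitary genes (1453 CPM). The unadjusted p was no longer under 0.05 in these fits, nor without POMC-C451Af/f replicate 3 or 4 for either gene, nor without control replicate 2 or POMC-C451Af/f replicate 1 for Esr1. With the mean log2 CPM of midbrain dopaminergic genes as a term in the fit, the log2 fold change was -0.21 for Pomc and -0.20 for Esr1. With that of oligodendrocyte genes, an addition made once the data had been seen, it was -0.089 for Pomc and -0.19 for Esr1. The unadjusted p was under 0.05 for neither gene in these fits, nor for Pomc in DESeq2. Both lists were themselves higher in POMC-C451Af/f pools, so that fits with them take up part of the genotype difference.

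Most astrocyte genes differed little between the genotypes, with members on either side of 0. Their median absolute log2 fold change was 0.053, above the 0.034 of genes expressed at least as highly as the lowest tested member. The widest difference was in Aqp4, the water channel of astrocyte end-feet, which was 22.0% higher in POMC-C451Af/f pools. The other genes with an unadjusted p under 0.05 were the potassium channel Kcnj10 and the glutamate transporter Slc1a2, both higher, and the marker enzyme Aldh1l1, lower. None passed the rule for a call, and Htra1, Gjb6, Serpina3n and Agt, all lower, had wider differences than Slc1a2 and Aldh1l1 but also larger SE.

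Of the 31 astrocyte genes, 30 passed the filter on low counts and were tested within the fit over 18637 genes. Lcn2 was the gene left out. A gene was called when edgeR's quasi-likelihood test gave it an adjusted p of at most 0.05 and its absolute log2 fold change was over 0.5. By this rule 0 of the 30 astrocyte genes were called, against 4 of all tested genes (0.0215%). DESeq2 on the same counts also called 0, against 12 of its 32164 genes. At an unadjusted p under 0.05 it had 5 of 31 astrocyte genes and 2.82% of all its genes. DESeq2 ran without the filter on low counts, so that its share includes low-count genes and cannot be set beside edgeR's. In edgeR's test 4 astrocyte genes had an unadjusted p under 0.05, against 950 of all tested genes (5.1%). Those higher in POMC-C451Af/f pools were Aqp4, Kcnj10 and Slc1a2, where 2.7% of all tested genes were higher at that level, and the lower one was Aldh1l1, where 2.39% were lower. In Aqp4 and Slc1a2 all POMC-C451Af/f pools lay above all control pools, as in 1.34% of tested genes, and in Aldh1l1 all lay below, as in 1.45%. The median log2 fold change of the 30 genes was -0.019, with 13 higher and 17 lower, beside a median of 0.00085 over all tested genes, of which 9399 were higher and 9238 lower. Without POMC-C451Af/f replicate 2 the genes with an unadjusted p under 0.05 were 9, with 3 higher and 6 lower, and without control replicate 1 they were 3, with 1 higher and 2 lower. Without POMC-C451Af/f replicates 3 and 4 together they were 2, and the median was 0.0084. The share of all tested genes at that level moved with these counts, to 9.38%, 3.37% and 3.04% in the same fits.

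The 95% interval of the log2 fold change lay between -0.5 and 0.5 for each of the 30 genes, and the bound farthest from 0 was 0.40, the upper one of Aqp4. For 26 of them it lay between -0.3 and 0.3. The SE had a median of 0.0448 over the astrocyte genes and of 0.0429 over the 7471 genes whose mean level was at least that of the lowest tested member, Fabp7. The absolute log2 fold change had a median of 0.053 over the astrocyte genes and of 0.034 over those 7471 genes, a description without a test. Changes of the size the rule asks for therefore lie outside the interval of every tested member. In bulk tissue, fewer astrocytes and less RNA per astrocyte cannot be told apart, nor can a change in one region of the hypothalamus be seen in a mean over all of it.

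**Figure D1:**
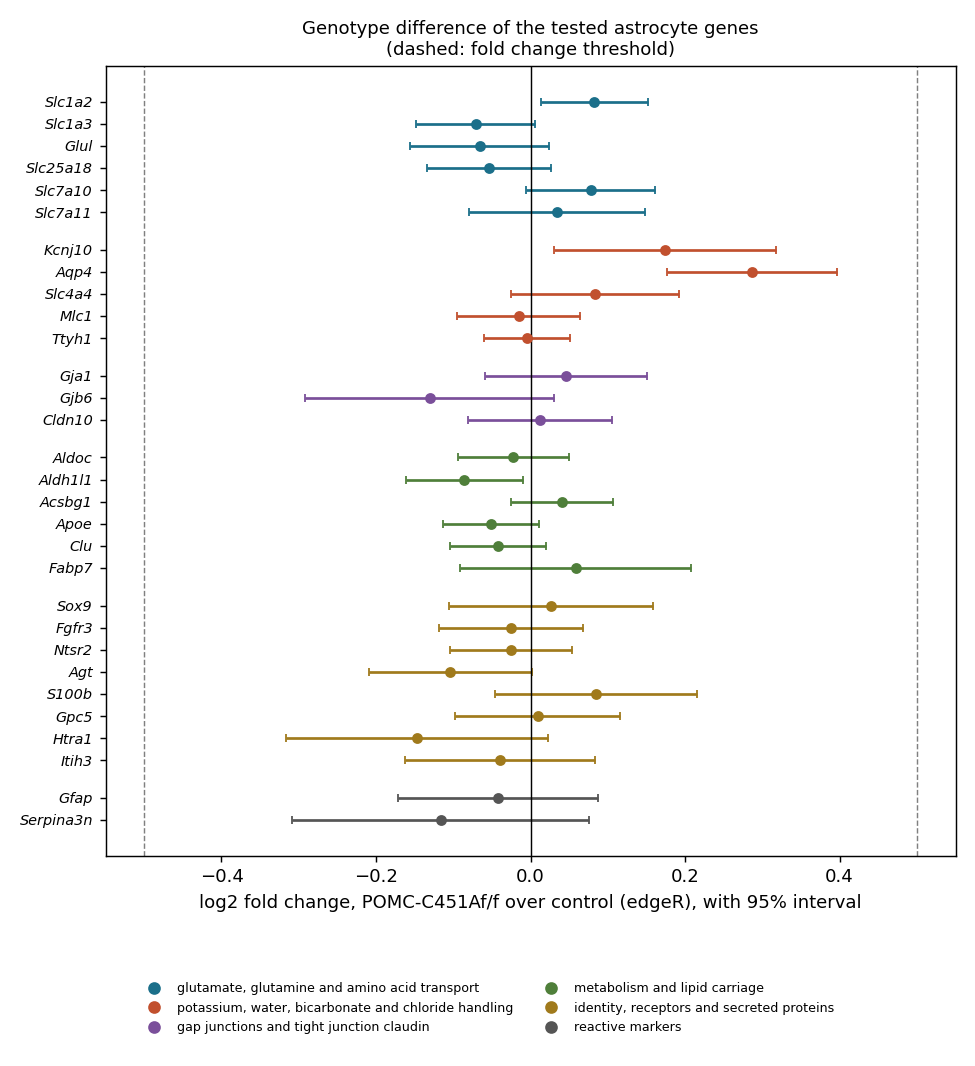
Log2 fold change of POMC-C451Af/f over control pools for the 30 tested astrocyte genes, by member group, with 95% intervals from edgeR's quasi-likelihood fit; dashed lines stand at the threshold of 0.5 in each direction. Aqp4 lies farthest from 0 at 0.29, Gpc5 changes sign when pools are scaled by total counts, and the intervals of Aqp4, Kcnj10, Slc1a2 and Aldh1l1 do not cross 0.

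All 31 genes had counts in every pool. Together they took between 1.05% and 1.11% of the normalized counts of a pool, and their sum was 10882 ± 121 CPM (SD, n = 4 pools) in controls and 10799 ± 197 CPM (SD, n = 4 pools) in POMC-C451Af/f mice. The lowest sum, 10506 CPM, was in POMC-C451Af/f replicate 4, and the other 7 pools lay between 10776 and 11057 CPM. Per kilobase of merged exons, the scale on which genes can be ranked, Apoe, the main apolipoprotein of the brain, stood first at 801 CPM per kb. Glul (438 CPM per kb), Aldoc (294 CPM per kb), Clu (231 CPM per kb) and Agt (143 CPM per kb) followed, and the ranges of these 5 genes over the 8 pools did not overlap. Per kilobase of the longest transcript instead, Clu stood before Aldoc and Slc1a3 moved from place 12 to place 6, so that the order depends on the length used. From the 6th to the 10th place the genes Slc1a2, Ttyh1, Itih3, Kcnj10 and S100b had means between 85.3 and 90.9 CPM per kb and ranges that overlapped, so that their order is not settled. Sox9, a transcription factor that specifies glia, was at 7.92 CPM per kb and Slc7a11 at 2.50 CPM per kb, the lowest of the tested members.

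**Figure D2:**
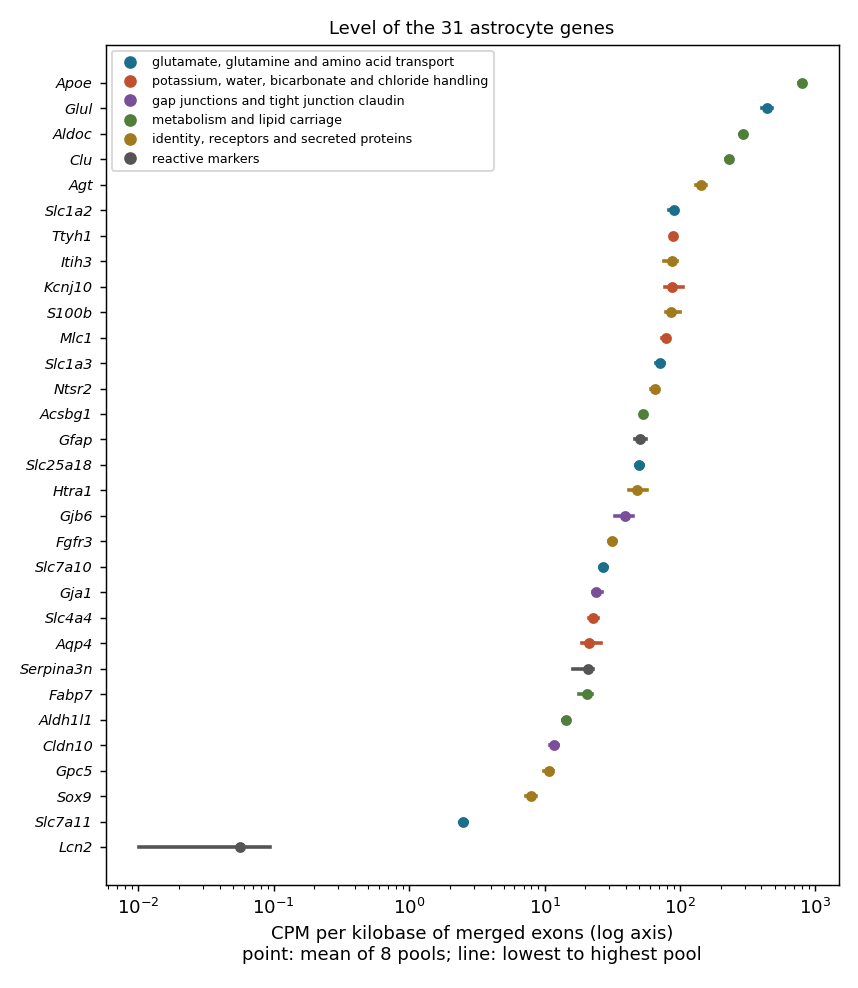
Level of the 31 astrocyte genes in CPM per kilobase of merged exons on a log axis, the point being the mean of 8 pools and the line running from the lowest to the highest pool. Apoe is highest at 801 CPM per kb, most genes lie between 10.8 and 143 CPM per kb, and Lcn2 lies far below the rest at 0.0561 CPM per kb.

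Among the genes of glutamate and amino acid transport, 3 of 6 were higher and 3 lower in POMC-C451Af/f pools, and 0 of 6 were called. Slc1a2, the transporter that clears most synaptic glutamate, was at 1092, 1198, 1165 and 1182 CPM in control replicates 1 to 4. In POMC-C451Af/f replicates 1 to 4 it was at 1218, 1204, 1244 and 1244 CPM. All POMC-C451Af/f pools were above all controls, but the gap between replicate 2 of either genotype was small and control replicate 1 was the lowest pool. Its log2 fold change was 0.083 (SE 0.0312), and edgeR's adjusted p was 0.878. Without control replicate 1 the log2 fold change was 0.054, and it was also 0.054 with the mean log2 CPM of midbrain dopaminergic genes in the fit and 0.039 with that of oligodendrocyte genes. In none of these fits was the unadjusted p under 0.05.

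Slc1a3, the other astrocyte glutamate transporter and the main one of tanycytes and radial glia, went the other way. Its level was 635, 600.0, 617 and 650.3 CPM in the control pools and 619.9, 599, 568 and 596 CPM in the POMC-C451Af/f pools. The genotypes overlapped, with POMC-C451Af/f replicate 3 lowest. A log2 fold change of -0.071 (SE 0.0348) came with an adjusted p of 0.878 from edgeR. The ratio of Slc1a2 to Slc1a3 counts was 1.86 ± 0.117 (SD, n = 4 pools) in controls and 2.06 ± 0.0989 (SD, n = 4 pools) in POMC-C451Af/f mice, and the pools of the genotypes overlapped. Glul, glutamine synthetase, was at 1488 ± 63.9 CPM (SD, n = 4 pools) in controls and 1421 ± 70.0 CPM (SD, n = 4 pools) in POMC-C451Af/f mice, a log2 fold change of -0.066 (SE 0.0404). It was -0.036 without control replicate 3, and -0.098 without POMC-C451Af/f replicate 2, with an unadjusted p under 0.05 in the latter fit. Slc25a18, a mitochondrial glutamate carrier, had a log2 fold change of -0.054 (SE 0.0363). Slc7a10, which exchanges small neutral amino acids such as serine and glycine, had one of 0.078 (SE 0.0377). It was 0.13 with the midbrain genes in the fit, 0.11 with the oligodendrocyte genes and 0.13 without POMC-C451Af/f replicates 3 and 4, each with an unadjusted p under 0.05. Slc7a11, the cystine and glutamate exchanger, had a log2 fold change of 0.034 (SE 0.0514), which was 0.00057 without POMC-C451Af/f replicate 1 and 0.070 without control replicate 4. The ratio of Slc7a11 to Slc7a10 counts was 0.620 ± 0.0428 (SD, n = 4 pools) in controls and 0.6004 ± 0.0241 (SD, n = 4 pools) in POMC-C451Af/f mice.

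Promoter sequences of both glutamate transporters are shown because their log2 fold changes had opposite signs, and that of Gfap because it is the classical marker of reactive astrocytes. The sequences are RefSeq promoters on GRCm38.p6, from 250 bases before to 50 after an annotated start, read on the strand of the gene. Slc1a2 is from chr2:102706188-102706487 (plus strand), Slc1a3 from chr15:8710758-8711057 (minus strand) and Gfap from chr11:102897151-102897450 (minus strand). The starts used for Slc1a2 and Gfap lie inside the genes as GENCODE draws them. Capitals mark matches to the STAT motif, TTC and GAA with 3 bases between, and Slc1a2 has no match to any motif searched.
Slc1a2: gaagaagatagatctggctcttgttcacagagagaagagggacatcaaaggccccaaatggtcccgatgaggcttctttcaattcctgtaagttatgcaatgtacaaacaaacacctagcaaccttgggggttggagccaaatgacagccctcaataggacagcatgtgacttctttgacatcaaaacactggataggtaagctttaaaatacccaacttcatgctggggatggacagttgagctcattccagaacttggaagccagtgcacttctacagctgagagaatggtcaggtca
Slc1a3: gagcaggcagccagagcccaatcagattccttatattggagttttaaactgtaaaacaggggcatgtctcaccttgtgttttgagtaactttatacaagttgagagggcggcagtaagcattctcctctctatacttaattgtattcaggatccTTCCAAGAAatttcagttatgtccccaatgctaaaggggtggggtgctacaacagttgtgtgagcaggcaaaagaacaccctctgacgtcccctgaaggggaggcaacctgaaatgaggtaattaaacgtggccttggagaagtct
Gfap: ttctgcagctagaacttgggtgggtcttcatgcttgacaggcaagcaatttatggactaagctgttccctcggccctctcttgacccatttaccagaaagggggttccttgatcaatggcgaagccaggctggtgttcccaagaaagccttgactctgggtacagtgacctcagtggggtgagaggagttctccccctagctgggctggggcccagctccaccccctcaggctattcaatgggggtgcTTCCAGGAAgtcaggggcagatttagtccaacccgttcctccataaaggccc

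Promoters were in the table for 28 of the 31 genes, with 34 entries, and 4 motifs were searched on both strands. The STAT motif was found in 7 of the 34 entries, of Acsbg1, Agt, Aldoc, Gfap, Ntsr2, Slc1a3 and Slc7a11, and in 8.3% of all 32851 promoters of this length. The SOX motif, ACAATG, was found in 1 entry, of Apoe, and in 12.6% of all promoters. The estrogen response element (GGTCA and TGACC with 3 bases between) and the NFI motif (TTGGC and GCCAA with 5 bases between) were found in 0 of the 34 entries, and in 0.07% and 0.0365% of all promoters. A match is a run of letters and not evidence of binding.

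The largest difference of the list was in the group that handles potassium, water and bicarbonate. Aqp4, the water channel of astrocyte end-feet, was at 122, 118, 118 and 124 CPM in control replicates 1 to 4. It was at 145, 139, 163 and 141 CPM in POMC-C451Af/f replicates 1 to 4. The lowest POMC-C451Af/f pool lay above the highest control by more than the whole range of the controls, and replicate 3 was the highest. The means were 120.5 ± 3.002 CPM (SD, n = 4 pools) in controls and 147 ± 10.8 CPM (SD, n = 4 pools) in POMC-C451Af/f mice, a log2 fold change of 0.29 (SE 0.0496) or 22.0% more. In the order of edgeR's p it stood at place 13 of the 18637 genes, with an adjusted p of 0.198.

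DESeq2 gave Aqp4 the same log2 fold change with an adjusted p of 0.000279, so that this tool placed it past the adjusted threshold and only the fold change kept it from being called. Over all alternatives the adjusted p ranged from 0.000279 to 0.9996 and the log2 fold change from 0.19 to 0.31. Without both POMC-C451Af/f replicates 3 and 4 the log2 fold change was 0.24. With the midbrain genes in the fit it was 0.19, and with the oligodendrocyte genes 0.24, and in each of these fits the unadjusted p was under 0.05.

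Kcnj10, the inward rectifier channel that carries most potassium uptake of astrocytes and is also made by oligodendrocytes, was at 417, 448, 440.2 and 473 CPM in the control pools. In the POMC-C451Af/f pools it was at 502, 451.5, 569.5 and 482 CPM. POMC-C451Af/f replicate 3 was far above the others, and replicate 2 lay within the range of the controls. Its log2 fold change was 0.17 (SE 0.0647), edgeR's adjusted p was 0.878, and the two-sided exact permutation test on log2 CPM gave p = 0.0571. With 70 splits the smallest p this permutation test can give is 0.0286, which it gave for Slc1a2, Aqp4 and Aldh1l1. It must give that p where the genotypes do not overlap, so that it adds nothing to that description. Without POMC-C451Af/f replicate 3 the log2 fold change was 0.11, and without control replicate 1 it was 0.14, each with an unadjusted p no longer under 0.05. With the midbrain genes in the fit it was 0.011, and with the oligodendrocyte genes 0.067.

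Slc4a4, the sodium bicarbonate cotransporter, had a log2 fold change of 0.083 (SE 0.0491), which turned to -0.026 with the midbrain genes in the fit, with the highest levels, 269 and 271 CPM, in POMC-C451Af/f replicates 3 and 4. Mlc1, an end-foot membrane protein tied to volume regulation, had one of -0.015 (SE 0.0359). Ttyh1, a membrane protein of the tweety family, had one of -0.0045 (SE 0.0250), and its highest pool was 1.04 times its lowest, the narrowest range of the tested members. Summed over the 5 genes, this group was at 1593 ± 44.1 CPM (SD, n = 4 pools) in controls and 1686 ± 79.1 CPM (SD, n = 4 pools) in POMC-C451Af/f mice, with the highest sum, 1797 CPM, in replicate 3 of the latter.

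**Figure D3:**
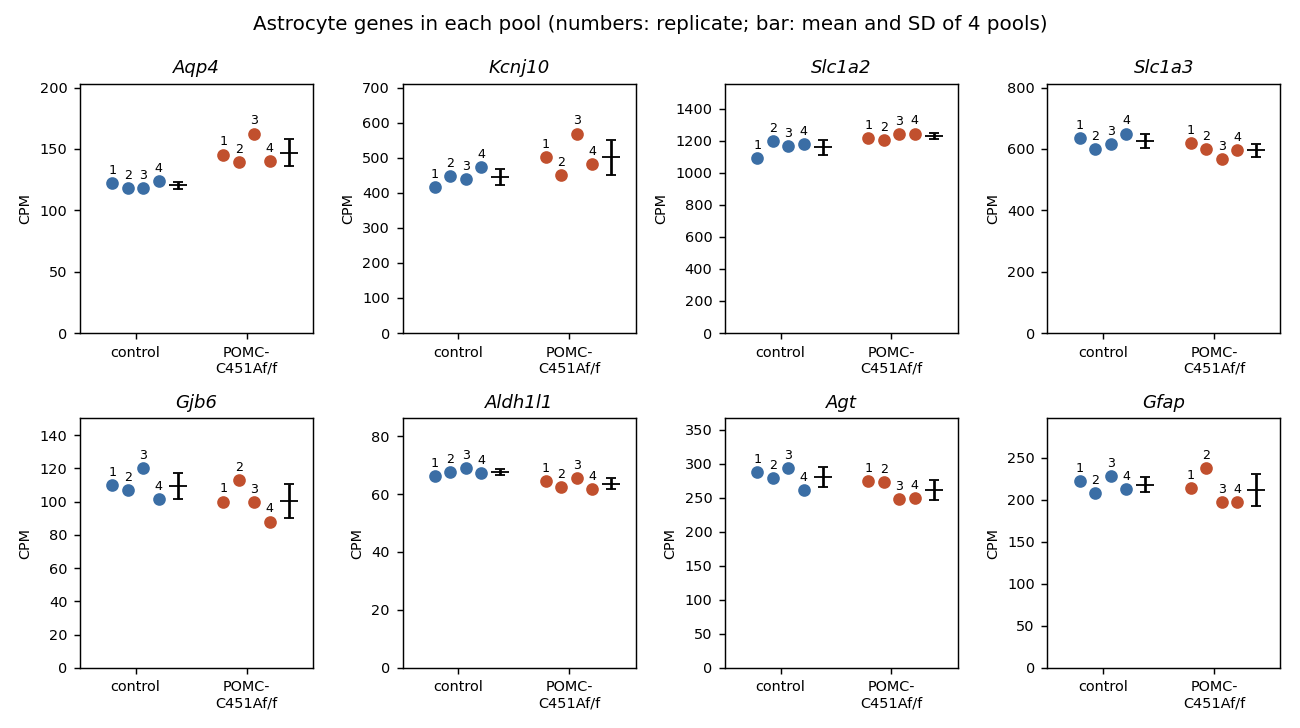
CPM of 8 astrocyte genes in each pool on axes that start at 0, with the replicate number above each point and the mean and SD of 4 pools beside them. Aqp4 shows a gap between 124 CPM in the highest control and 139 CPM in the lowest POMC-C451Af/f pool, while the genotypes overlap in Kcnj10, Slc1a3, Gjb6, Agt and Gfap.

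Of the 12 other genes of potassium, pump, water and volume regulation, 8 were higher, 4 lower and 0 called, and their median log2 fold change was 0.025. An unadjusted p under 0.05 was given to Slc12a2, a cotransporter of sodium, potassium and chloride, at 0.17 (SE 0.0711), and to Lrrc8a, a subunit of the volume-regulated anion channel, at -0.087 (SE 0.0395). For each of these, and for each gene of the other lists named with an unadjusted p under 0.05, edgeR's adjusted p was 0.878. Genes that hold or accompany Aqp4 and Kcnj10 at the end-feet were named after their values were seen. Dag1, which ties Aqp4 to the basal lamina, had a log2 fold change of 0.021. Kcnj16, which forms channels together with Kcnj10, had one of 0.030.

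The gap junction and claudin genes showed 2 of 3 higher, 1 lower and 0 called. Gjb6, a connexin of grey matter astrocytes, was at 110.1, 107, 120.0 and 101 CPM in the control pools and at 100.02, 113, 99.5 and 88.0 CPM in the POMC-C451Af/f pools. The genotypes overlapped, with POMC-C451Af/f replicate 4 lowest and control replicate 3 highest. A log2 fold change of -0.13 (SE 0.0729) was found, and edgeR's adjusted p was 0.878. It was -0.073 without POMC-C451Af/f replicate 4, -0.084 without control replicate 3, -0.20 without POMC-C451Af/f replicate 2, with an unadjusted p under 0.05, and -0.034 with the midbrain genes in the fit. Gja1, the main connexin of astrocytes, was at 242 ± 6.03 CPM (SD, n = 4 pools) in controls and 249 ± 17.7 CPM (SD, n = 4 pools) in POMC-C451Af/f mice, and its highest pool was POMC-C451Af/f replicate 3 at 273 CPM. The log2 fold change of Gja1 was 0.045 (SE 0.0473), and it turned to -0.00066 without that pool and to -0.063 with the midbrain genes in the fit. The ratio of Gjb6 to Gja1 counts was 0.454 ± 0.0353 (SD, n = 4 pools) in controls and 0.403 ± 0.0558 (SD, n = 4 pools) in POMC-C451Af/f mice, with overlap. Cldn10, a claudin, had a log2 fold change of 0.012 (SE 0.0423).

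Of the 8 other connexins and pannexins, 6 were higher and 2 lower, 0 were called and 2 had an unadjusted p under 0.05. Gjb1, a connexin of oligodendrocytes, the cells to which astrocytes couple, had such a p and was at 11.6 ± 1.26 CPM (SD, n = 4 pools) in controls and 14.96 ± 1.57 CPM (SD, n = 4 pools) in POMC-C451Af/f mice, without overlap. This gave a log2 fold change of 0.37 (SE 0.0944).

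Among the genes of metabolism and lipid carriage, 2 of 6 were higher and 4 lower, with 0 called. Aldh1l1, the folate enzyme used as a general astrocyte marker, was at 66.3, 67.5, 68.9 and 67.2 CPM in control replicates 1 to 4. It was at 64.5, 62.5, 65.7 and 61.7 CPM in POMC-C451Af/f replicates 1 to 4. All POMC-C451Af/f pools were below all controls, by a margin smaller than the spread within either genotype. Its log2 fold change was -0.086 (SE 0.0342), and edgeR's adjusted p was 0.878. Leaving out single pools moved the log2 fold change between -0.10 and -0.071, and the unadjusted p was no longer under 0.05 without control replicate 3 or without POMC-C451Af/f replicate 2 or 4.

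Apoe was at 1742 ± 44.8 CPM (SD, n = 4 pools) in controls and 1681 ± 47.4 CPM (SD, n = 4 pools) in POMC-C451Af/f mice, a log2 fold change of -0.051 (SE 0.0282). Clu, the other abundant apolipoprotein of astrocytes, had one of -0.042 (SE 0.0279). Aldoc, the aldolase of astrocytes, had one of -0.022 (SE 0.0323), Acsbg1, a fatty acyl-CoA synthetase, one of 0.041 (SE 0.0297), and Fabp7, a fatty acid binding protein shared with radial glia and tanycytes, one of 0.058 (SE 0.0676). The last was 0.12 without POMC-C451Af/f replicate 3, with an unadjusted p under 0.05, and 0.019 and 0.028 without POMC-C451Af/f replicate 1 or 4.

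Of the 12 other genes of glycolysis, glycogen and lactate export, 8 were higher, 4 lower and 0 called, with a median log2 fold change of 0.023. Pfkfb3, an activator of glycolysis, had an unadjusted p under 0.05 at 0.13 (SE 0.0416), and its genotypes did not overlap. The 12 genes of cholesterol synthesis and export had a median of 0.045, with 9 higher, 3 lower and 0 called, and Sqle, squalene epoxidase, had an unadjusted p under 0.05 at 0.12 (SE 0.0414). Of the 13 other genes of glutamate, glycine, GABA and glutamine transport and glutamate metabolism, 11 were higher, 2 lower and 0 called. Slc6a9, the glycine transporter of astrocytes, was at 134 ± 4.74 CPM (SD, n = 4 pools) in controls and 149 ± 5.45 CPM (SD, n = 4 pools) in POMC-C451Af/f mice, without overlap, a log2 fold change of 0.15 (SE 0.0384).

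The 8 genes of identity, receptors and secreted proteins showed 3 higher, 5 lower, 0 called and 0 with an unadjusted p under 0.05. Agt, angiotensinogen, which marks astrocytes of the hypothalamus and other ventral regions, was at 288, 279, 293 and 261 CPM in the control pools and at 275, 273, 248 and 249 CPM in the POMC-C451Af/f pools. The lowest levels were in POMC-C451Af/f replicates 3 and 4, and replicates 1 and 2 lay within the control range. Its log2 fold change was -0.10 (SE 0.0475), and it was -0.035 without POMC-C451Af/f replicates 3 and 4 and -0.018 with the midbrain genes in the fit. DESeq2, over its 32164 genes, gave Agt an unadjusted p under 0.05 and edgeR's main fit did not. EdgeR's fit on all genes unfiltered also gave it such a p. So did its fits with the replicate block and without control replicate 4 or POMC-C451Af/f replicate 1 or 2. Htra1, a secreted serine protease, was at 136, 149, 164 and 137 CPM in the control pools and at 125, 151, 131 and 122 CPM in the POMC-C451Af/f pools, with overlap. Its log2 fold change was -0.15 (SE 0.0765), and it was -0.087 without control replicate 3, -0.22 without POMC-C451Af/f replicate 2, with an unadjusted p under 0.05, and -0.058 with the midbrain genes in the fit. S100b, a calcium binding protein of astrocytes and of some oligodendrocytes, had one of 0.085 (SE 0.0591), and stood out in POMC-C451Af/f replicate 3 at 148 CPM, where the other 7 pools lay between 117 and 126 CPM. The receptors Fgfr3 and Ntsr2, for fibroblast growth factors and neurotensin, each had one of -0.026, with SE of 0.0420 and 0.0358. Sox9, the glypican Gpc5 and the hyaluronan binding Itih3 had log2 fold changes of 0.027, 0.0090 and -0.039, and the sign of each turned in at least 1 alternative. With the midbrain genes in the fit Gpc5 was at -0.064 and Itih3 at 0.080, scaling by total counts put Gpc5 at -0.00040, and Sox9 was at -0.014 without POMC-C451Af/f replicate 1.

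In the list of astrocyte transcription factors and their signalling, 10 of 13 genes were higher, 3 lower and 0 called, with a median of 0.033. Hes5, a target of Notch that keeps progenitors undifferentiated, was at 10.6 ± 0.739 CPM (SD, n = 4 pools) in controls and 13.0 ± 0.935 CPM (SD, n = 4 pools) in POMC-C451Af/f mice, without overlap, a log2 fold change of 0.28 (SE 0.0739). In the list of thyroid hormone, steroid and retinoid handling, 7 of 9 genes were higher and 2 lower, with 0 called and 0 at an unadjusted p under 0.05.

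Of the 3 reactive markers, 2 were tested and 0 called, both with a negative log2 fold change. Gfap, the intermediate filament of reactive astrocytes, was at 223, 208, 228 and 213 CPM in control replicates 1 to 4 and at 214, 238, 197 and 198 CPM in POMC-C451Af/f replicates 1 to 4. The genotypes overlapped, since POMC-C451Af/f replicate 2 was the highest pool of all and replicates 3 and 4 the lowest. Its log2 fold change was -0.042 (SE 0.0586), and the 95% interval ran from -0.17 to 0.088. Without POMC-C451Af/f replicates 3 and 4 it was 0.052, and with the midbrain or the oligodendrocyte genes in the fit it was 0.063 and 0.048, so that no direction is given. Without POMC-C451Af/f replicate 2 it was -0.10, with an unadjusted p under 0.05. Serpina3n, an acute-phase protease inhibitor, was at 46.4, 41.6, 47.4 and 43.5 CPM in the control pools and at 45.6, 44.6, 41.4 and 33.5 CPM in the POMC-C451Af/f pools. The genotypes overlapped, with POMC-C451Af/f replicate 4 lowest. A log2 fold change of -0.12 (SE 0.0867) was found, with a 95% interval from -0.31 to 0.075, and it was 0.013 without POMC-C451Af/f replicates 3 and 4. Lcn2, lipocalin, which is strongly induced in inflammation, had 9, 5, 12 and 1 counts in the control pools and 4, 7, 8 and 2 in the POMC-C451Af/f pools, too few for the test. Its level was thus near the floor of the assay in all 8 pools.

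Other genes of the reactive state were counted in 3 lists. Of the 9 tested pan-reactive genes 2 were higher and 7 lower, of 11 genes of inflammatory stimulation 4 were higher and 7 lower, and of 9 tested genes of ischemic injury 3 were higher and 6 lower, with 0 called in each by edgeR or DESeq2. The summed CPM of each of these lists was highest in control replicates 1 and 3 and POMC-C451Af/f replicate 2, which are also the pools with the highest leptomeningeal sums, and the part of such tissue was not tested. Timp1, an inhibitor of metalloproteinases, was the only one of these with an unadjusted p under 0.05, at a log2 fold change of 0.99 (SE 0.443). Its level was 2.09 CPM in POMC-C451Af/f replicate 4 and from 0.389 to 0.940 CPM elsewhere, where the genotypes overlapped. The ratio of Gfap to Aqp4 counts was 1.82, 1.77, 1.93 and 1.72 in the control pools and 1.47, 1.71, 1.21 and 1.41 in the POMC-C451Af/f pools. The genotypes did not overlap in this ratio, but POMC-C451Af/f replicate 2 was close to the lowest control.

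The astrocyte genes did not move as a block between pools. Over the 435 pairs of tested members, the correlation of log2 CPM deviations from the genotype means across the 8 pools had a median of 0.083, beside 0.023 over all pairs of the 7471 genes at this level of expression, as a description in which genes are not independent replicates. POMC-C451Af/f replicate 4 was the lowest pool for 12 of the 30 genes, and POMC-C451Af/f replicate 3 was the highest for 7 and the lowest for another 7. The genes highest in replicate 3, which included Aqp4, Kcnj10, Gja1 and S100b, and those lowest in it, which included Slc1a3, Agt, Itih3 and Gfap, thus parted within a single pool. Control replicate 1 was lowest for 6 genes, among them Slc1a2, Kcnj10 and Slc4a4.

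**Figure D4:**
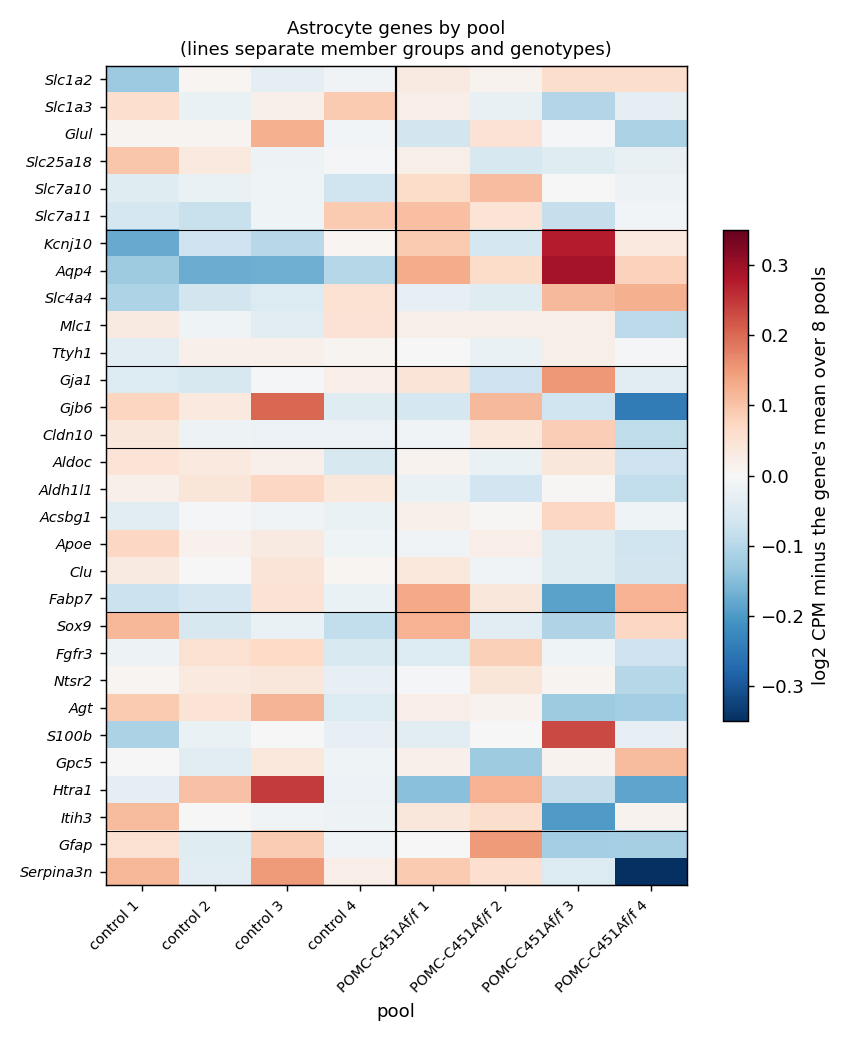
Log2 CPM of the 30 tested astrocyte genes in each pool minus the gene's mean over the 8 pools, with black lines between genotypes and between member groups. Aqp4 is the row in which the 4 control pools are all below and the 4 POMC-C451Af/f pools all above the mean by the largest margin, and POMC-C451Af/f replicate 3 holds both the highest Kcnj10 and the lowest Agt.

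Markers of other cells moved between the pools as well. All 10 oligodendrocyte genes were higher in POMC-C451Af/f pools, 0 were called and 3 had an unadjusted p under 0.05, among them the myelin genes Mog (log2 fold change 0.23, SE 0.0763) and Mag (0.22, SE 0.0824). Their sum was 5181, 6099, 6172 and 6132 CPM in the control pools and 6095, 6006, 7405 and 6801 CPM in the POMC-C451Af/f pools, led by Mbp. The pool with the highest sum, POMC-C451Af/f replicate 3, was also the one with the highest Kcnj10, Aqp4 and S100b, and the pool with the lowest, control replicate 1, was the one with the lowest Kcnj10 and Slc1a2. All 8 midbrain dopaminergic genes were higher, 7 of them with an unadjusted p under 0.05. By edgeR and DESeq2 as run here 0 were called, which does not speak for the authors' own DESeq2 comparison. Th, the rate-limiting enzyme of dopamine synthesis, had a log2 fold change of 0.55 (SE 0.135). Their sum was 187, 180.2, 219 and 235 CPM in the control pools and 279, 219, 441 and 319.6 CPM in the POMC-C451Af/f pools, led by Aldh1a1. Each of these marker genes had counts, so none was at 0 in all pools. Whether a different share of tissue in the dissections has a part in the values of Aqp4, Kcnj10 and Slc1a2 was not tested beyond the fits with these genes given above. Those fits cannot settle it, since both lists were themselves higher in POMC-C451Af/f pools.

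Of the 10 microglial genes 9 were higher, 0 were called and 2 had an unadjusted p under 0.05, Cx3cr1 at a log2 fold change of 0.13 (SE 0.0365) and P2ry12 at 0.13 (SE 0.0589). Of 10 neuronal genes, led by Snap25, 6 were higher and 1, Slc17a6, had an unadjusted p under 0.05 (0.14, SE 0.0647). Of 10 tanycyte genes, led by Vim, 3 were higher, and Nes, a filament of tanycytes and progenitors, had a log2 fold change of 0.25 (SE 0.0741) and an unadjusted p under 0.05. Tek was the only one of 10 endothelial and mural genes, led by Rgs5, with an unadjusted p under 0.05 (0.22, SE 0.0783), and 5 of the 10 were higher. No gene of the oligodendrocyte precursor, ependymal, choroid plexus, leptomeningeal or pituitary lists, led by Gpr17, Pltp, Prlr, Igf2 and Prl, reached that level, with 3 of 7, 4 of 8, 4 of 8, 0 of 6 and 0 of 5 tested genes higher in that order, and 0 genes of any of these lists were called by edgeR or DESeq2. The pituitary sum was 1453 CPM in control replicate 1 and at most 225 CPM in the other 7 pools. The leptomeningeal sum was 186 and 209 CPM in control replicates 1 and 3 and 194 CPM in POMC-C451Af/f replicate 2, and at most 105 CPM in the other 5 pools. Gfap and Serpina3n were above their medians over the 8 pools in these 3 pools and in POMC-C451Af/f replicate 1, and the part of leptomeningeal tissue in their values was not tested.

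**Figure D5:**
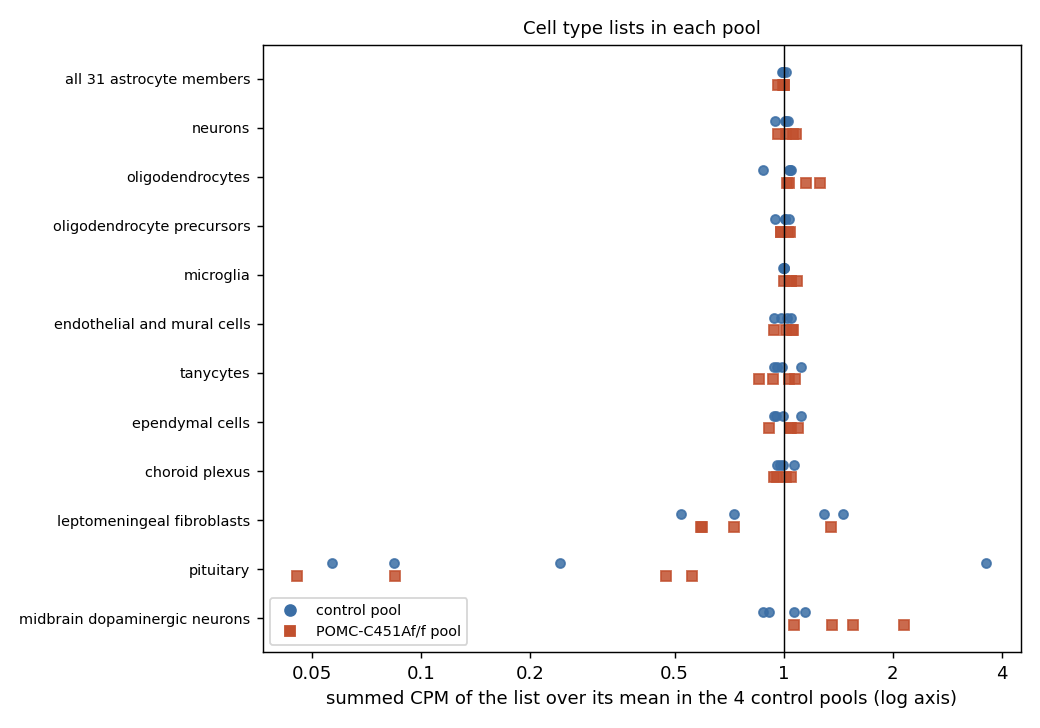
Summed CPM of the astrocyte genes and of 11 lists of other cell types in each pool, divided by the mean of the 4 control pools, on a log axis. The astrocyte sum varies least, oligodendrocyte and midbrain sums are highest in POMC-C451Af/f replicate 3, and the pituitary sum of control replicate 1 stands far from the rest.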

How the data were processed

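RNA of the hypothalamus was sequenced from 8 pools of 2 animals each. The values are estimated counts per gene which, per the authors' methods, were made with Salmon 1.10 against the mouse GENCODE transcripts on GRCm39 and summed to genes, with no scaling between pools. The authors' table of their own DESeq2 comparison, which holds mean count, log2 fold change, its SE, Wald statistic, p and adjusted p, was not used. The 31 astrocyte genes and the lists set beside them were chosen with earlier results of these data known.

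Counts were rounded and analyzed in R 4.3.3 with edgeR 4.0.16 (TMM, filterByExpr at a minimum count of 10 and a minimum total of 15, quasi-likelihood test of genotype alone) over 18637 genes, with Benjamini-Hochberg adjustment. A gene was called at an adjusted p of at most 0.05 and an absolute log2 fold change over 0.5. The SE of a log2 fold change is its size over the square root of the test's F, and 95% intervals use the total degrees of freedom of the fit. CPM use normalized library sizes, with TMM factors from 0.984 to 1.02. An exact permutation test ran on log2 CPM after adding 0.5, only for the astrocyte genes with an unadjusted p under 0.05 in edgeR's main fit. It is therefore no independent test of them. Named are all 31 astrocyte genes, at most 3 genes of each other list with an unadjusted p under 0.05, the most abundant gene of each list of another cell type, Esr1 and Pomc, together with Dag1 and Kcnj16, chosen after their values were seen, except for a few genes of the other lists that are not reported here. The procedure was tested on simulated counts.

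Alternatives were DESeq2 1.42.0, DESeq2's size factors, total counts, all genes unfiltered, a filter of 10 counts in each of the pools, counts not rounded, a replicate block, leaving out each pool or POMC-C451Af/f replicates 3 and 4 together, stricter and looser rules for a call, and the midbrain genes as a covariate. The oligodendrocyte genes as a covariate were added after seeing the data. Levels per kilobase use the merged exons of a GENCODE annotation of GRCm38, an older build than that of the counts. Between any pair of pools the chi-square per degree of freedom was at least 4.6, so that no pool repeats another.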

Additional observations from a re-analysis of the deposited data

Results flagged for a closer look

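In some groups of 4 pools a single pool lay far from the rest, with a gap to its nearest neighbour that took up most of the group's whole range. Of 174 groups checked, over genes and summed lists in either genotype, 17 were of this kind, where chance gives about 8.7, or 1 in 20. The groups are not independent, since a sum holds its genes and genes of a list share pools, so that no excess is read from this.

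Among the astrocyte genes in controls, the gap was 0.849 of the range for Glul (replicate 3 highest), 0.876 for Ttyh1 (replicate 1 lowest), 0.965 for Cldn10 (replicate 1 highest) and 0.853 for Itih3 (replicate 1 highest). In POMC-C451Af/f pools it was 0.992 for Mlc1 (replicate 4 lowest), 0.876 for S100b (replicate 3 highest) and 0.85 for the sum of all 31 astrocyte genes (replicate 4 lowest).

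Control replicate 1 was the far pool for most of the others. It was lowest for Mag, with a gap of 0.891 of the range, for Mbp (0.851) and for the oligodendrocyte sum (0.927), and highest for Prl (0.942), Pomc (0.978) and the pituitary sum (0.948). POMC-C451Af/f replicate 2 was lowest for Sqle (0.974) and for the cholesterol sum (0.933) and highest for Igf2 (0.874), and POMC-C451Af/f replicate 4 was highest for Nes (0.871).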

How the results depend on the processing

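Under each of the alternatives run, 0 astrocyte genes were called, also by DESeq2. By the adjusted p alone, edgeR's main fit also gave 0, whereas DESeq2 gave 1, Aqp4, with an adjusted p of 0.000279. At an unadjusted p under 0.05 the edgeR count was 4, beside 5.1% of all tested genes. That of DESeq2 was 5, beside 2.82% of its genes, which were not filtered on low counts. Of the 30 tested genes, 17 kept their sign in all 18 alternatives, Aqp4, Kcnj10, Slc1a2 and Aldh1l1 among them, and 13 changed it in at least 1. Leaving out single pools gave between 3 genes (without control replicate 1 or 3) and 9 genes (without POMC-C451Af/f replicate 2) with an unadjusted p under 0.05, and a median log2 fold change between -0.024 and -0.0025. Of all tested genes, 3.37%, 3.65% and 9.38% were at that level in these 3 fits, against 5.1% with all pools. With the replicate block, which treats equal replicate numbers as paired, 8 genes had an unadjusted p under 0.05, as had 6.06% of all tested genes. Deviations of same-numbered pools correlated at 0.14, -0.18, -0.11 and 0.24, with no common sign. Pools of different numbers were not set beside these, so that whether the numbers pair the pools is not settled.

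Without POMC-C451Af/f replicates 3 and 4, 2 genes had an unadjusted p under 0.05, beside 3.04% of all tested genes, and the median was 0.0084. The log2 fold change then changed sign for Fgfr3 (0.0064), Gfap (0.052), Gpc5 (-0.048), Itih3 (0.030), Mlc1 (0.013), Ntsr2 (0.0068) and Serpina3n (0.013). With the midbrain genes as a covariate it did so for Fgfr3 (0.034), Gfap (0.063), Gja1 (-0.063), Gpc5 (-0.064), Itih3 (0.080), Ntsr2 (0.0075), S100b (-0.019) and Slc4a4 (-0.026). With the oligodendrocyte genes, chosen after seeing the data, it did so for Gfap (0.048), Gja1 (-0.0060), Gpc5 (-0.031), Itih3 (0.057), Mlc1 (0.0058), S100b (-0.0036) and Slc4a4 (-0.0045). Of all tested genes, 2.98% had an unadjusted p under 0.05 with the midbrain genes and 3.6% with the oligodendrocyte genes. Scaling by total counts turned Gpc5 (-0.00040).

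Leaving out single pools changed the sign within these ranges: Cldn10 -0.016 to 0.043, Gja1 -0.00066 to 0.074, Gpc5 -0.027 to 0.048, Itih3 -0.070 to 0.016, Mlc1 -0.031 to 0.012, Ntsr2 -0.046 to 0.0025, Sox9 -0.014 to 0.070 and Ttyh1 -0.018 to 6.5e-05. The cause was not tested. Of the 10 genes highest per kilobase of merged exons, 9 were among the 10 highest per kilobase of the longest transcript. With 4 pools a genotype, the intervals leave room for differences up to 0.40 on the log2 scale.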
